A study of Mus musculus with 6 samples.

Results

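The CXC chemokine genes of mouse chromosome 5 described here are *Cxcl1*, *Cxcl2*, *Cxcl3*, *Cxcl5*, *Cxcl15*, *Ppbp*, *Pf4*, *Cxcl9*, *Cxcl10* and *Cxcl11*. These 10 genes were taken by symbol from the 23282 rows of the count files, and each has 1 row. Liver sinusoidal endothelial cells (LSECs), whose fenestrated layer separates blood from hepatocytes, were sequenced from *Txnip-/-* mice, which lack *Txnip* in the whole animal on a C57BL/6J background, and from C57BL/6J WT mice, with 3 libraries per genotype. The cells came from collagenase-perfused livers by density gradient and anti-CD146 magnetic beads, so loss of *Txnip* in other liver cells of the same mice is part of the genotype. The age, sex, diet and time in culture of the sequenced cells, and whether the 3 libraries of a genotype came from separate mice, are not given in the sources used here, so the spread between libraries may be technical. *Txnip*, which encodes thioredoxin-interacting protein, had 191 to 269 counts per *Txnip-/-* library and 1901 to 2019 per WT library. It was thus lower in every *Txnip-/-* library, in the direction of the labels, but not absent. The source of the remaining counts was not tested. The family was chosen by position and name, but also selected on the measured contrast between these genotypes, in which several of its genes were already known to differ. Their differences are given as a description, with 95% intervals and without p-values.

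CXC chemokines are small secreted proteins that guide leukocytes along vessel walls. Those of the first group, *Cxcl1*, *Cxcl2*, *Cxcl3*, *Cxcl5*, *Cxcl15* and *Ppbp*, carry a glutamate-leucine-arginine motif and attract neutrophils, most of them through the receptor CXCR2. Transcription of *Cxcl1*, *Cxcl2*, *Cxcl3* and *Cxcl5* is typically switched on through NF-κB by IL-1, TNF or microbial products. *Cxcl9*, *Cxcl10* and *Cxcl11* lack that motif, are induced by interferons and attract activated T and NK cells through CXCR3. *Pf4*, which encodes platelet factor 4, and *Ppbp*, the precursor of the platelet chemokine CXCL7, are best known from megakaryocytes and platelets, although *Pf4* is also expressed by macrophages, and *Cxcl15* is best known from lung epithelium.

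The 10 genes lie in 2 clusters on chromosome 5 (GRCm38, GENCODE M21). The neutrophil-attracting genes and *Pf4* occupy 146.6 kb from 90759360 to 90905938, all on the plus strand, in the order *Cxcl5*, *Ppbp*, *Pf4*, *Cxcl3*, *Cxcl15*, *Cxcl1* and *Cxcl2*. The interferon-induced genes occupy 44.1 kb from 92321347 to 92365485 on the minus strand, 1415.4 kb further along. RefSeq promoter sequences of GRCm38.p6 were held for 8 of the 10 genes and not for *Cxcl5* and *Cxcl11*. The last 130 bases before the annotated start are shown for *Cxcl1*, *Cxcl2* and *Cxcl3*, since the first 2 were the most abundant members and the third is their closest relative, with matches to the κB motif GGGA-N-TT-N-CC (N, any base) in capitals.
*Cxcl1* (chr5:90891115-90891244, plus strand): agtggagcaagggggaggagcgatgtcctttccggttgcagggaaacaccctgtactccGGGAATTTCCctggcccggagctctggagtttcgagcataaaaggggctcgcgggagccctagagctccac
*Cxcl2* (chr5:90903769-90903898, plus strand): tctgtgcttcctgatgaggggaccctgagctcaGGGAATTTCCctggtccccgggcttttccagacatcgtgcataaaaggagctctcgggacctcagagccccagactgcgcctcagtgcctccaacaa
*Cxcl3* (chr5:90785971-90786100, plus strand): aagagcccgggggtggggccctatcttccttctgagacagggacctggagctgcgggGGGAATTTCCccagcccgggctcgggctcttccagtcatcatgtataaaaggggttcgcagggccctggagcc

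For comparison with the interferon-induced genes, 250 bases before the start of *Cxcl10* are shown, with its κB motif match and its match to the interferon-stimulated response element GAAA-NN-GAAA in capitals.
*Cxcl10* (chr5:92348890-92349139, minus strand): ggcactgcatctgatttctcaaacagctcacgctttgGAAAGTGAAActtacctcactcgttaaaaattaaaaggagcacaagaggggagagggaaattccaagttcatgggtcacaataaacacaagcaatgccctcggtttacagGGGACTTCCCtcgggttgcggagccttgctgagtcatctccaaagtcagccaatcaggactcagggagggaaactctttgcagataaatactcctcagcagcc
The motifs were written after these promoters had been looked at, and both strands of the 250 bases before each start were searched. The same site, GGGAATTTCC, stood 71 to 62 bases before the start in *Cxcl1*, 97 to 88 in *Cxcl2* and 73 to 64 in *Cxcl3*. These are distances from the RefSeq starts. The *Cxcl2* promoter runs to 90903898, past the GENCODE start at 90903871, so its larger distance depends on the annotation. *Cxcl10* held GGGACTTCCC at 103 to 94 and GAAAGTGAAA at 213 to 204. The promoters of *Cxcl9*, *Cxcl15*, *Pf4* and *Ppbp* held neither motif in this window. The GAS element TTC-NNN-GAA, another interferon response motif, and the TATA box TATAAA were searched too. No member promoter held the GAS element, and those of *Cxcl3*, *Cxcl9*, *Cxcl15* and *Ppbp* held the TATA box. Looser forms of these motifs were not searched. Of 32851 RefSeq promoters, 0.98% held the κB motif, 2.98% the interferon-stimulated response element, 7.02% the GAS element and 12.4% the TATA box. A match in letters is a description and does not show binding.

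Levels are given as CPM, the counts of a gene relative to the library total after TMM scaling. QuantSeq gives about 1 read per transcript near its polyadenylated end, so these levels do not grow with transcript length and were compared between genes on the same scale. The libraries held 9147764 to 10193952 counts, and the detection floor, set at 3 counts, was 0.286 to 0.335 CPM. The ribosomal RNA precursor row *Rn45s* took 16.8% to 18.6% of the counts in *Txnip-/-* LSECs and 17.8% in WT replicate 3. It took 10.03% in WT replicate 1 and 9.68% in WT replicate 2, so that these libraries stood apart. Over genes averaging at least 10 counts, *Rn45s* included, chi-square per degree of freedom was 3.93 between WT replicates 1 and 2. WT replicate 3 was at 37.04 and 40.25 from these 2 and at 13.25 to 17.12 from the *Txnip-/-* libraries. By this measure it was nearer to the *Txnip-/-* libraries than to the other WT libraries, and the cause was not tested. A gene was called when its adjusted p in edgeR's quasi-likelihood test over 11583 genes was under 0.05 and its fold change above 1.3. In this fit 59 genes were called higher and 108 lower in *Txnip-/-* LSECs, or 35 and 145 without normalization factors.

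The neutrophil-attracting genes that LSECs expressed at a measurable level were all higher in *Txnip-/-* LSECs. *Cxcl2*, the most abundant of the 10 genes in both genotypes, measured 328, 327 and 342 CPM in the *Txnip-/-* libraries and 154, 152 and 135 CPM in the WT libraries. The lowest *Txnip-/-* library was thus above the highest WT library, and the fitted level was 2.26-fold higher (log2 fold change 1.17, standard error 0.09, 95% interval 0.99 to 1.36). *Cxcl1*, which encodes the chemokine known as KC, measured 152, 135 and 164 CPM against 50.6, 53.3 and 52.1 CPM in WT LSECs. Again no library overlapped, with a 2.90-fold difference (log2 fold change 1.53, standard error 0.11, 95% interval 1.31 to 1.76). *Cxcl5*, which encodes the chemokine known as LIX, measured 23.7, 33.1 and 23.2 CPM in *Txnip-/-* LSECs and 3.02, 2.38 and 2.96 CPM in WT LSECs. The WT values came from 31, 25 and 28 counts. The lowest *Txnip-/-* library was again far above the highest WT library, a 9.55-fold difference with the interval 6.56 to 13.9 (log2 fold change 3.26, standard error 0.26).

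These 3 genes were the called members among the 6 that passed the filter on low counts, while 0.509% of all tested genes were called higher. The same 3 were those of the 6 whose libraries did not overlap, while the *Txnip-/-* libraries were all above the WT libraries in 8.43% of all tested genes and all below in 8.94%. As the family was chosen with this contrast known, nothing is read from these counts. In order of mean level over all 23282 rows, *Cxcl2* stood at place 1191 in WT and 425 in *Txnip-/-* LSECs, *Cxcl1* at 3543 and 1174, and *Cxcl5* at 10223 and 5435. By log2 fold change *Cxcl5* was at place 2 of 11583 tested genes, *Cxcl1* at 61 and *Cxcl2* at 149. All 3 calls held in the 6 fits that lacked 1 library and under each other test, filter and scaling that was run. Under a threshold of 1.3 on the log2 scale *Cxcl2* would not be called. With WT replicates 1 and 2 given a term of their own, which leaves WT replicate 3 as the reference, the log2 fold changes were 3.17 for *Cxcl5*, 1.53 for *Cxcl1* and 1.299 for *Cxcl2*.

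**Figure D1:**
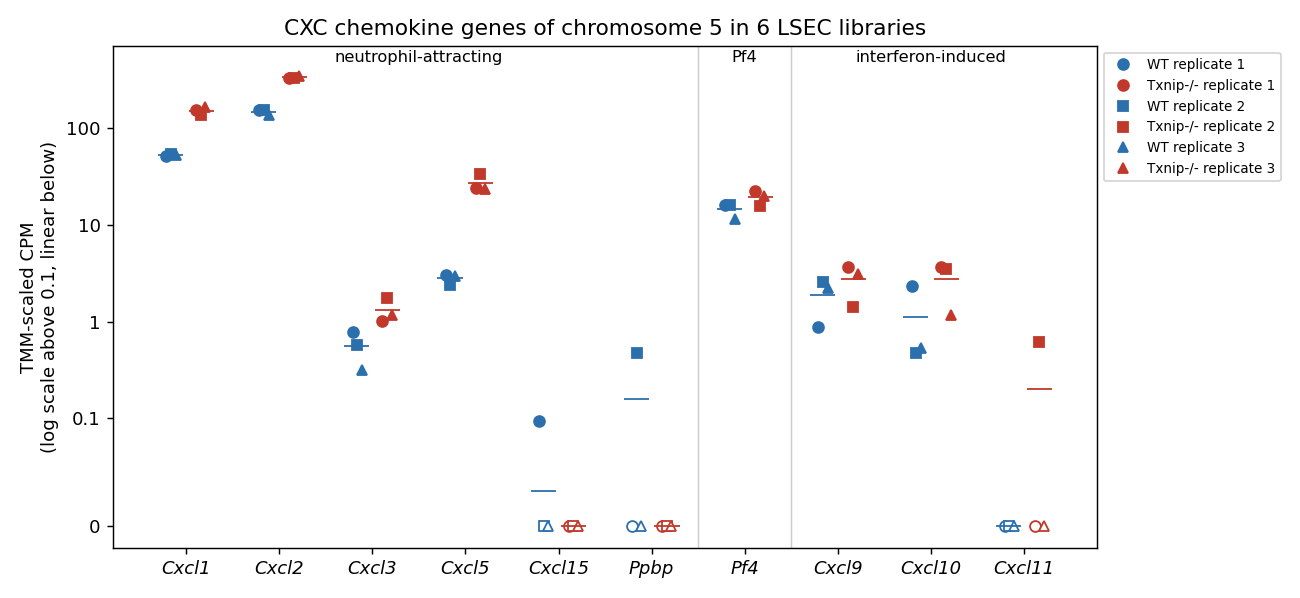
TMM-scaled CPM of the 10 chemokine genes (vertical axis, logarithmic above 0.1 and linear below) in each of the 3 WT (blue) and 3 *Txnip-/-* (red) LSEC libraries, with a marker shape per replicate, a line at the genotype mean and open markers for 0 counts. The red and blue points are apart for *Cxcl1*, *Cxcl2*, *Cxcl3* and *Cxcl5* and overlap for *Pf4*, *Cxcl9* and *Cxcl10*.

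The other neutrophil-attracting genes were at or near the limit of detection. *Cxcl3* gave 9, 17 and 11 counts in *Txnip-/-* LSECs and 8, 6 and 3 in WT LSECs, 37 against 17 in sum. These are 1.005, 1.73 and 1.18 CPM against 0.78, 0.57 and 0.32 CPM, without overlap, but the gene was below the filter. Fitted without a filter its log2 fold change was 1.20 with a standard error of 1.21, so its difference could not be measured at this depth. *Ppbp* had 5 counts in WT replicate 2 and 0 in each other library, and *Cxcl15* had 1 count in WT replicate 1 and 0 elsewhere. A count of 0 allows up to 3 counts, so at this depth these genes were below 0.335 CPM in the libraries where none was counted. Of the 3637 different 75-base stretches of the *Cxcl3* transcripts, 101 (2.78%) also occur in *Cxcl2*, at least 850 bases from the 3′ end of the *Cxcl3* transcripts. In *Cxcl2* they lie 227 to 262 bases from the 3′ end of a transcript of 397 bases and at least 939 bases from that end in the longer transcripts that hold them. No such stretch of *Cxcl1*, *Cxcl15*, *Ppbp*, *Pf4* or *Cxcl9* occurs in another gene's transcripts, and 12 of 1926 (0.623%) of *Cxcl5* do, between 729 and 750 bases from its 3′ end. Because reads with several alignments were counted, the few *Cxcl3* counts are uncertain in this respect, and the share of such reads was not tested.

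*Pf4* was expressed in every library and its difference was not called. It measured 22.4, 15.5 and 19.8 CPM in *Txnip-/-* LSECs and 16.1, 15.9 and 11.5 CPM in WT LSECs. The lowest *Txnip-/-* library lay below WT replicates 1 and 2, and the log2 fold change of 0.41 (standard error 0.22, 95% interval -0.06 to 0.87) had an interval that included 0. Other genes of megakaryocytes and platelets were at low levels. *Gp6* and *Gp9* had 0 counts in all libraries, and the 11 listed genes without *Gng11*, which endothelial cells also express, summed to 1.497 to 9.27 CPM in *Txnip-/-* and 2.10 to 4.67 CPM in WT LSECs. *Ppbp*, the neighbouring platelet chemokine gene, was not detectable in 5 of the 6 libraries.

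The interferon-induced genes were expressed at a low level in both genotypes, and no difference of any single member was called. *Cxcl9*, induced mainly by interferon-γ, gave 33, 14 and 29 counts in *Txnip-/-* LSECs and 9, 27 and 21 in WT LSECs. The genotypes overlapped, at 2.74 ± 1.17 and 1.89 ± 0.90 CPM (SD, n = 3), with a log2 fold change of 0.53 (standard error 0.64, 95% interval -0.81 to 1.87). *Cxcl10*, which responds to type I interferon, interferon-γ and NF-κB, had 33, 34 and 11 counts against 24, 5 and 5. WT replicate 1, with 2.34 CPM, lay above *Txnip-/-* replicate 3, with 1.18 CPM, and the other *Txnip-/-* libraries lay above all WT libraries. Its log2 fold change of 1.303 (standard error 0.76, 95% interval -0.31 to 2.91) rested on few counts and was 2.43 without WT replicate 1 and 0.94 without WT replicate 2. The interval includes both no difference and the log2 fold changes of *Cxcl1* and *Cxcl2*. *Cxcl11* had 6 counts in *Txnip-/-* replicate 2 and 0 in the other 5 libraries. Neither *Cxcl9* nor *Cxcl10* was called in any alternative fit, DESeq2 and limma-trend included.

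**Figure D2:**
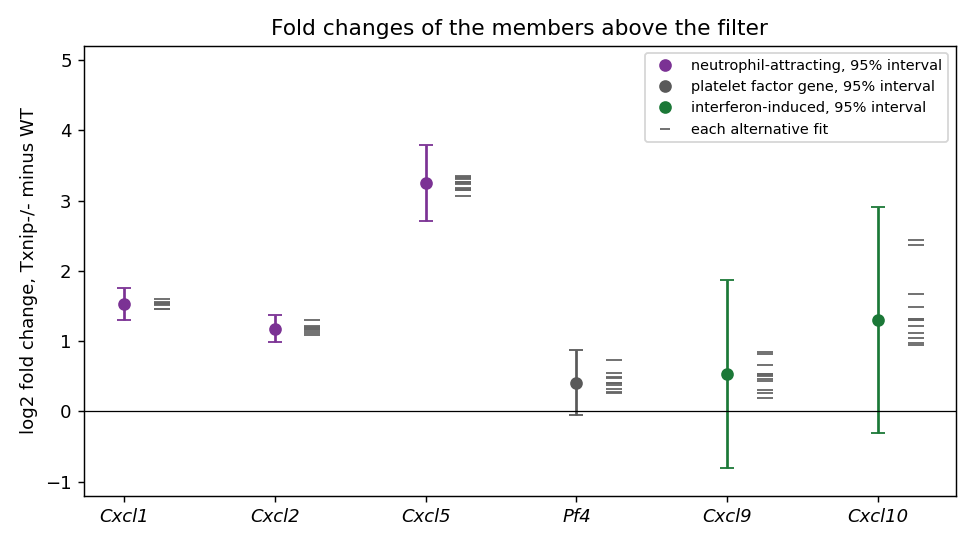
Log2 fold change of *Txnip-/-* over WT LSECs (vertical axis) for the 6 chemokine genes above the filter, with the 95% interval of the edgeR fit and a dash for each alternative fit. The intervals of *Cxcl1*, *Cxcl2* and *Cxcl5* lie above 0, and those of *Pf4*, *Cxcl9* and *Cxcl10* include 0.

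*Cxcl10* and *Cxcl11* each share transcript sequence with a gene on the opposite strand, *Cxcl10* at its 3′ end. An exon of *Art3* overlaps the 3′ end of *Cxcl10*, and 59 different 75-base stretches within the last bases of *Cxcl10* are also in *Art3* transcripts. *Art3* gave 12, 11 and 9 counts in *Txnip-/-* LSECs and 31, 29 and 19 in WT LSECs, the opposite order to *Cxcl10*, and was not called (log2 fold change -1.18, adjusted p = 0.518, edgeR). Transcripts of *Gm2673* contain 39.8% of the 75-base stretches of *Cxcl11*, at least 2212 bases from its 3′ end. The use of strand in the counting is not stated, so reads within the shared stretches of a pair cannot be told apart.

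To compare the 2 kinds of chemokine within each library, their CPM were summed. The 6 neutrophil-attracting genes summed to 505, 497 and 531 CPM in *Txnip-/-* LSECs and 209, 209 and 190 CPM in WT LSECs. The 3 interferon-induced genes summed to 7.37, 5.505 and 4.28 CPM against 3.21, 3.05 and 2.75 CPM, from 40 to 66 and 26 to 33 counts. In both sums each *Txnip-/-* library lay above each WT library, and the means differed 2.52-fold and 1.90-fold. The neutrophil-attracting genes were 68.5, 90.3 and 124 times as abundant as the interferon-induced genes in the *Txnip-/-* libraries and 65.1, 68.5 and 69.3 times as abundant in the WT libraries. On the log2 scale this ratio was 6.52 ± 0.43 and 6.08 ± 0.05 (SD, n = 3), a difference of 0.44 that was as large as the SD of the *Txnip-/-* libraries, with *Txnip-/-* replicate 1 below WT replicate 3. With *Cxcl1*, *Cxcl2* and *Cxcl5* set over *Cxcl10* alone the difference turned to -0.22. The data thus showed a measured difference for the neutrophil-attracting genes and a poorly measured one for the interferon-induced genes, and did not show that the 2 groups differed from each other in relative change.

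**Figure D3:**
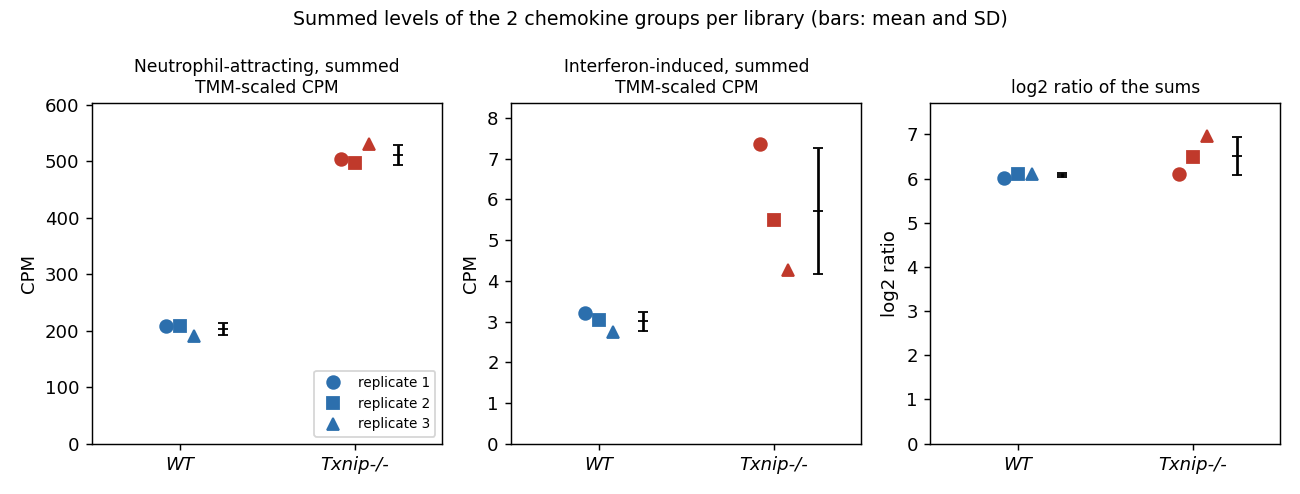
Summed TMM-scaled CPM of the 6 neutrophil-attracting genes (left) and of the 3 interferon-induced genes (middle), and the log2 ratio of the sums (right), in each library, with mean and SD per genotype and a marker shape per replicate. Both sums are higher in all 3 *Txnip-/-* libraries, while the ratio of *Txnip-/-* replicate 1 (6.10) lies among the WT values (6.02 to 6.11).

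The make-up of the neutrophil-attracting group differed too. *Cxcl5* made up 4.69%, 6.67% and 4.37% of the summed CPM in *Txnip-/-* LSECs and 1.44%, 1.14% and 1.55% in WT LSECs. *Cxcl2* made up 65.0%, 65.7% and 64.4% against 73.9%, 72.9% and 70.9%, and *Cxcl1* 30.1%, 27.3% and 31.0% against 24.2%, 25.5% and 27.4%. The shares of *Cxcl2* and *Cxcl5* did not overlap between genotypes, and those of *Cxcl1* did, at *Txnip-/-* replicate 2 and WT replicate 3. Within a library, *Cxcl5* was at a log2 ratio of -2.51 ± 0.42 to *Cxcl1* in *Txnip-/-* LSECs and -4.23 ± 0.22 in WT LSECs (SD, n = 3). In WT LSECs *Cxcl5* was less abundant than *Pf4* in every library, and in *Txnip-/-* LSECs it was more abundant in every library. The order of mean levels was *Cxcl2*, *Cxcl1*, *Pf4*, *Cxcl5*, *Cxcl9*, *Cxcl10* and *Cxcl3* in WT LSECs and *Cxcl2*, *Cxcl1*, *Cxcl5*, *Pf4*, *Cxcl10*, *Cxcl9* and *Cxcl3* in *Txnip-/-* LSECs. In both genotypes *Cxcl9* and *Cxcl10* did not differ from each other beyond the spread between libraries.

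Of the genes beside and between the chemokine clusters, 1 was called, while 1.44% of all tested genes were called in either direction. Of 28 other genes that start within 500 kb of a member, 14 passed the filter, 8 with a log2 fold change above 0 and 6 below, with a median of 0.003 where that of all tested genes was 0. *Ereg*, which encodes the EGF-receptor ligand epiregulin and lies between the clusters, was this gene. It rose from 6.69 ± 1.13 to 15.0 ± 2.82 CPM (SD, n = 3; log2 fold change 1.17 ± 0.26 (SE), edgeR adjusted p = 0.0292), and its adjusted p lay between 0.00438 and 0.26 over the alternatives. The call was lost without any 1 of 4 libraries, *Txnip-/-* replicates 2 and 3 and WT replicates 1 and 2. *Alb*, the albumin gene on the other side of the first cluster, had 126 to 258 counts in *Txnip-/-* and 215 to 233 in WT libraries (log2 fold change -0.14, adjusted p = 0.894, edgeR).

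**Figure D4:**
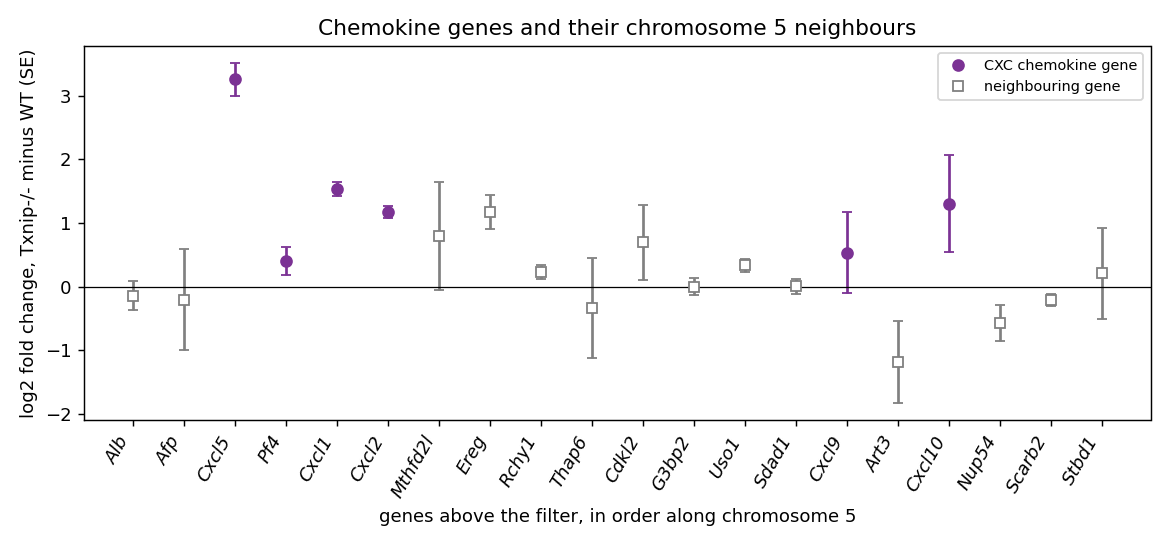
Log2 fold change of *Txnip-/-* over WT LSECs with its standard error (vertical axis) for the chemokine genes (filled circles) and neighbouring genes (open squares) above the filter, in their order along chromosome 5 and not to scale. *Cxcl5* and *Cxcl1* lie above all neighbours, while *Ereg*, the 1 neighbour called, is level with *Cxcl2* (1.17 each).

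Among the other CXC chemokine genes, which lie outside these clusters, 4 of 5 passed the filter and 1 was called, beside 1.44% of all tested genes. *Cxcl12*, the CXCR4 ligand, rose from 98.3 ± 8.36 to 236 ± 42.5 CPM (SD, n = 3; log2 fold change 1.26, adjusted p = 7.08e-06, edgeR), and *Cxcl16* was at a log2 fold change of 0.30 (adjusted p = 0.129, edgeR). Of 8 receptor genes for CXC chemokines, 3 passed the filter and 0 were called in edgeR, with 1 gene at an unadjusted p under 0.05 and 0 called by DESeq2 or limma-trend. The receptor genes for the members described here were hardly detected. *Cxcr2*, the receptor gene of neutrophils, had 7, 7 and 3 counts in *Txnip-/-* and 9, 2 and 4 in WT libraries, *Cxcr1* had 0 counts in all libraries, and *Cxcr3* had 2 counts in WT replicate 2 alone. Of 20 genes for syndecans and heparan sulfate, which hold chemokines on the endothelial surface, 18 passed the filter and 0 were called in edgeR, with 1 at an unadjusted p under 0.05 and 0 called by DESeq2 or limma-trend.

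Of 34 genes of the NF-κB pathway and its targets, 28 passed the filter, 23 with a log2 fold change above 0, and the median was 0.36. Of all 11583 tested genes, 5791 had a log2 fold change above 0 and 0.509% were called higher. At an unadjusted p under 0.05, 10 of the listed genes were higher and 0 lower. The share over all tested genes at this cut-off was not taken. Nothing is therefore read from this count or from the like counts of the other lists. Those called were *Tnip1*, an inhibitor of NF-κB activation (214 ± 30.4 to 309 ± 2.68 CPM, SD, n = 3; log2 fold change 0.53, adjusted p = 0.00796, edgeR), and *Nfkb2*, a subunit gene (82.8 ± 1.20 to 115 ± 9.12 CPM; log2 fold change 0.47, adjusted p = 0.0237, edgeR). Neither call held throughout. The adjusted p of *Tnip1* lay between 1.17e-05 and 0.126 and that of *Nfkb2* between 0.00344 and 0.144 over the alternatives, and of the fits lacking 1 library only that without WT replicate 3 called *Tnip1*, and 2 of 6 called *Nfkb2*. *Nfkbia* rose from 1077 ± 78.0 to 1383 ± 72.1 CPM (SD, n = 3, log2 fold change 0.36, adjusted p = 0.0212, edgeR). Its libraries did not overlap, but its fold change was under the threshold of 1.3. Libraries did not overlap for 12 of the 28 genes in either direction, beside 8.43% of all tested genes above and 8.94% below. The inflammatory target genes *Vcam1* (228 CPM in WT and 248 CPM in *Txnip-/-* LSECs) and *Icam1* (72.6 and 79.8 CPM) were not called. Both were well above the floor, whereas several other such genes had few counts. *Csf2* had 0 counts, and *Il1b* had 2 counts in *Txnip-/-* replicate 1 and 1 in WT replicate 1. In *Txnip-/-* and WT LSECs in turn, *Csf3* had 0, 11 and 36 against 0, 1 and 0 counts, *Ptgs2* 15, 0 and 23 against 0, 3 and 0, and *Il6* 5, 0 and 12 against 1, 0 and 0, all below the filter. *Tnf*, with 8, 26 and 13 against 3, 15 and 3 counts, was at a log2 fold change of 1.25 (adjusted p = 0.645, edgeR). Of 48 interferon receptor, factor and target genes, 44 passed the filter, 21 above and 23 below 0, with a median of -0.03. None was called in edgeR, 3 had an unadjusted p under 0.05, and 0 were called by DESeq2 or limma-trend. Of 11 genes that act on the decay of chemokine mRNAs, all passed the filter with a median of 0.06, and 0 were called in edgeR, at an unadjusted p under 0.05, or by DESeq2 or limma-trend. The lists were chosen with earlier results of these data known, and the counts are given as a description.

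Marker genes of other liver cells moved with the genotype. The 16 Kupffer cell and macrophage markers summed to 352 to 389 CPM in *Txnip-/-* and 845 to 873 CPM in WT LSECs, the opposite direction to the chemokine genes, and 12 of the 15 above the filter were called lower, beside 0.932% of all tested genes. Among these were *Cd163*, *Ctss*, *Marco* and *C1qa*, with log2 fold changes of -2.07, -1.75, -1.07 and -1.48 (adjusted p = 5.48e-07, 1.7e-06, 5.23e-06 and 1.04e-05, edgeR). In bulk RNA, fewer cells of a type and less RNA per cell cannot be told apart. The 12 stellate cell and fibroblast markers summed to 60.3 to 75.6 CPM in *Txnip-/-* and 31.7 to 39.1 CPM in WT LSECs, the same direction as the chemokine genes. All 10 above the filter had a log2 fold change above 0, and *Dcn* and *Acta2* were called higher (log2 fold changes 0.99 and 1.47, adjusted p = 0.00497 and 0.00677, edgeR). Over all 11583 tested genes, 5791 lay above 0 and 0.509% were called higher. *Acta2*, which encodes smooth muscle actin, lost its call without WT replicate 1 and with a separate term for WT replicates 1 and 2. The part of these cells in the chemokine levels was not tested.

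Neutrophil transcripts were scarce, and the sum of their markers was higher in every *Txnip-/-* library. The 13 neutrophil markers in the files summed to 7.38 to 13.2 CPM in *Txnip-/-* and 3.81 to 5.43 CPM in WT LSECs. Of these, *Elane*, *Mpo*, *Camp*, *Ngp*, *Retnlg* and *Stfa1* had 0 counts in all libraries, and without *Lcn2*, which other cells also express, the list summed to 1.92 to 4.13 CPM in *Txnip-/-* and 0.74 to 1.91 CPM in WT LSECs. *Lcn2*, the 1 gene of this list above the filter, was at a log2 fold change of 1.29 (adjusted p = 0.131, edgeR). The part of neutrophils in the chemokine levels was not tested. The T, NK and B cell markers summed to 1.60 to 4.28 CPM in *Txnip-/-* and 4.48 to 6.29 CPM in WT LSECs, most of it from *Ptprc*, a gene of all leukocytes, macrophages included. Without *Ptprc* they summed to 0 to 0.64 CPM in *Txnip-/-* and 0.10 to 0.85 CPM in WT LSECs, and 9 of the 13 genes had 0 counts. Hepatocyte, platelet and lymphocyte lists had 7, 2 and 1 genes above the filter, of which 0 were called in edgeR, DESeq2 or limma-trend and 1, a hepatocyte gene, had an unadjusted p under 0.05. Hepatocyte markers summed to 43.5 to 55.5 CPM in *Txnip-/-* and 41.0 to 47.4 CPM in WT LSECs. The 12 LSEC markers were present at 4577 to 5000.4 CPM in *Txnip-/-* and 5303 to 7065 CPM in WT LSECs, which matches the labelled cell type. *Lyve1* made up much of this range, at 3482 and 3780 CPM in WT replicates 1 and 2, 1520 CPM in WT replicate 3 and 1475 to 1976 CPM in *Txnip-/-* LSECs. Without it the sums were 3024 to 3230 CPM in *Txnip-/-* and 3285 to 3783 CPM in WT LSECs. All 12 had a log2 fold change below 0, and *Mrc1* and *Stab1* were called lower (-0.76 and -0.46, adjusted p = 0.000718 and 0.00984, edgeR). Over all 11583 tested genes, 5792 lay below 0 and 0.932% were called lower. *Stab1* lost its call without *Txnip-/-* replicate 2 or 3 and with the replicate block. The part of macrophages in the levels of *Mrc1* and *Stab1* was not tested.

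**Figure D5:**
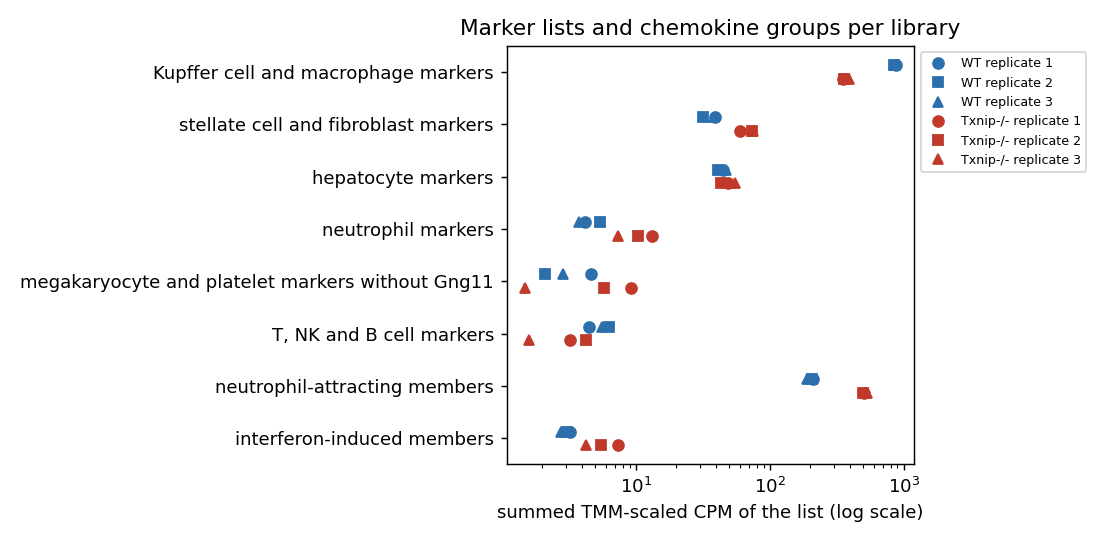
Summed TMM-scaled CPM (horizontal axis, logarithmic) of 6 marker lists and of the 2 chemokine groups in each WT (blue) and *Txnip-/-* (red) library, with a marker shape per replicate. The macrophage sum (352 to 389 against 845 to 873 CPM) and the small T, NK and B cell sum are lower in all *Txnip-/-* libraries. The stellate cell sum, the small neutrophil marker sum and both chemokine sums are higher in all *Txnip-/-* libraries.

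The profiles of the members over the 6 libraries were compared as log2 CPM centred on each gene's mean, by the root mean square difference. *Cxcl1* and *Cxcl2* were closest to each other among the members (0.20), while *Cxcl5* was 0.86 from *Cxcl1* because of its larger difference between genotypes. Among 9358 other tested genes with at least 5 CPM, the nearest to *Cxcl1* were *Fstl1* (0.13), *Acta2* (0.14) and *Bco1* (0.18), and the nearest to *Cxcl2* were *Bco1* (0.10), *Cryab* (0.12) and *Fstl1* (0.13). *Pcdh18*, *Rbms3* and *Fstl3* were nearest to *Cxcl5*, at 0.60 to 0.89. For *Pf4* these were *Spef1*, *Usb1* and *Pex14* (0.07 each), for *Cxcl9* they were *Rps6kl1*, *Nupr1* and the interferon-induced gene *Gbp2* (0.27 to 0.28), and for *Cxcl10* they were *Itfg2*, *Rhox5* and *Fam185a* (0.52 to 0.54). *Cxcl9* and *Cxcl10* were 1.32 apart from each other, further than *Cxcl9* was from *Cxcl1* (0.72). The genes nearest to *Cxcl1* and *Cxcl2* had log2 fold changes of 1.16 to 1.47, so these profiles mostly show the genotype difference. The distances also grow with a member's own root mean square spread, 0.30 for *Pf4* and 1.59 for *Cxcl5*. A smaller distance for *Pf4* is thus not a closer likeness. With 6 libraries and so many candidates such likeness is a description, and at the counts of *Cxcl9* and *Cxcl10* it holds much counting error.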

How the data were processed

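QuantSeq 3′ mRNA-Seq libraries were made from LSEC RNA, 3 per genotype. The authors aligned the single-end reads (Bowtie2), summed single and repeated alignments for each gene (Bedtools) and deposited raw whole-number counts for 23282 symbols. The submitters' processing notes name mm10, and versions, annotation and use of strand are not given in the sources used here. Molecular identifiers are not mentioned, so floors cover counting error only. Counts summed to 9147764 to 10193952 per library.

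Counts were filtered with filterByExpr (11583 rows kept), scaled by TMM and fitted on genotype alone with the quasi-likelihood functions of edgeR 4.0.16 (R 4.3.3). P-values were adjusted by Benjamini-Hochberg over all genes. Standard errors are the log2 fold change over the root of F. Alternatives were DESeq2 1.42.0, limma-trend (limma 3.58.1, prior count 2), other scaling and filters, the replicate block, *Rn45s* left out, a term for WT replicates 1 and 2, other thresholds and each library left out. The fits were tested on simulated data. Positions are of GENCODE M21. The members and gene lists were chosen with earlier results of these data known. Named were the members, *Txnip*, *Cxcr2*, *Cxcr3*, up to 4 called genes per list by p, and the 3 nearest profiles per member. Other genes named (*Art3*, *Alb*, *Cxcl16*, *Lcn2*, *Cxcr1*, *Csf2*, *Csf3*, *Il1b*, *Il6*, *Ptgs2*, *Tnf*, *Nfkbia*, *Vcam1*, *Icam1*, *Lyve1*, *Ptprc*, *Gng11* and markers at 0) were chosen after their values were seen.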

Additional observations from a re-analysis of the deposited data

How the results depend on the processing

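With other thresholds, filters, scalings and tests, the 3 calls of *Cxcl1*, *Cxcl2* and *Cxcl5* held, except that *Cxcl2* is under a log2 threshold of 1.3. Over 16 alternatives the log2 fold change lay between 1.45 and 1.61 for *Cxcl1*, 1.09 and 1.299 for *Cxcl2*, 3.07 and 3.34 for *Cxcl5*, 0.27 and 0.74 for *Pf4*, 0.19 and 0.84 for *Cxcl9* and 0.94 and 2.43 for *Cxcl10*. Of all genes, 167 were called in both directions together, against 301 with no filter on low counts, 57 with a log2 fold change above 1.3 and 108 with the replicate block, and 89 (without WT replicate 1) to 301 (without WT replicate 3) with a library left out. The deviations of same-numbered libraries correlated at -0.03, 0.02 and -0.05, so replicate numbers were not treated as pairs, and the block changed no call of a member but ended those of *Stab1* and *Nfkb2*. The called neighbour *Ereg* was not called with the block or with the term for WT replicates 1 and 2, and the count was 0 to 1 with a library left out. The difference in log2 ratio between neutrophil-attracting and interferon-induced genes was 0.22 to 0.65 with a library left out and -0.22 with *Cxcl1*, *Cxcl2* and *Cxcl5* over *Cxcl10* alone. Called NF-κB genes numbered 0 to 5. The cause of these shifts was not tested. Counts of at most 34 per library limit *Cxcl3*, *Cxcl9*, *Cxcl10* and *Cxcl11*, and the WT level of *Cxcl5* rested on 25 to 31 counts per library.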
